A study of Oryctolagus cuniculus with 18 samples.

Results

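Among 2052 cDNA clones measured in rabbit (Oryctolagus cuniculus) preimplantation embryos, 172 clones were brighter relative to the other clones in 4-cell embryos than in early morulae, and stayed near their morula level in expanded blastocysts. They were chosen on the score that the authors deposited for every clone and array. The mean score over the 6 arrays of 4-cell embryos had to exceed the mean over the 6 morula arrays by at least 0.6, and the blastocyst mean had to lie less than 0.6 from the morula mean. Of the 223 clones with such a fall, 25 were left out because their blastocyst score was 0.6 or more above the morula score, and 26 because it was 0.6 or more below. The score is a log intensity scaled to the same spread on every array. One score unit corresponded to 0.954 to 1.45 log2 units of raw intensity on 4-cell arrays, 1.10 to 1.72 on morula arrays and 1.30 to 1.90 on blastocyst arrays.

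The embryos had developed in vivo and were pooled at 32 h post coitum (4-cell embryos), 58 h (early morulae, called morulae here) and 90 h (expanded blastocysts, 1 pool of which was collected at 96 h). Each stage had 3 pools, drawn from 2 to 7 females, with 16 to 60 embryos in the 8 pools whose number is stated. Every pool gave 1 nylon array after amplification into antisense RNA (aRNA) and 1 after amplification by PCR, so 18 arrays in all. A pool averages embryos of several litters, and no genotype, strain or treatment distinguishes the groups in the labels. In such pools, fewer cells that hold a transcript and less of it per cell cannot be told apart.

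A mammalian embryo starts with messenger RNA stored in the oocyte. This maternal RNA is degraded in steps over the cleavage divisions, through shortening of the poly(A) tail and decapping, while the embryo's own genome becomes active. In the rabbit the main activation of the embryonic genome falls between the 4-cell and the morula stages, so the earliest stage sampled here precedes it and the morula follows it. The blastocyst is the stage at which trophoblast and inner cell mass have separated. Transcripts that fall between cleavage and morula and stay low are the pattern known for stored maternal messages. The array data alone do not say which of the 172 clones are maternal. No table used here links the clone IDs to genes, so clones are given by ID, with no gene or sequence assigned to them.

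Measured as rank, the fall was a move from the bright end of the array to its middle. On the 6 arrays of 4-cell embryos the median clone of the 172 stood between the 80.0th and the 86.4th percentile of all clones. On morula arrays the median stood between the 39.0th and the 51.6th percentile, and on blastocyst arrays between the 44.6th and the 52.9th. The 3 stages of development therefore split into 1 high stage and 2 stages near the middle, on both amplifications, as the choice of the clones demands. The plot of ranks by array shows these medians with the quartiles of the clones.

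**Figure D1:**
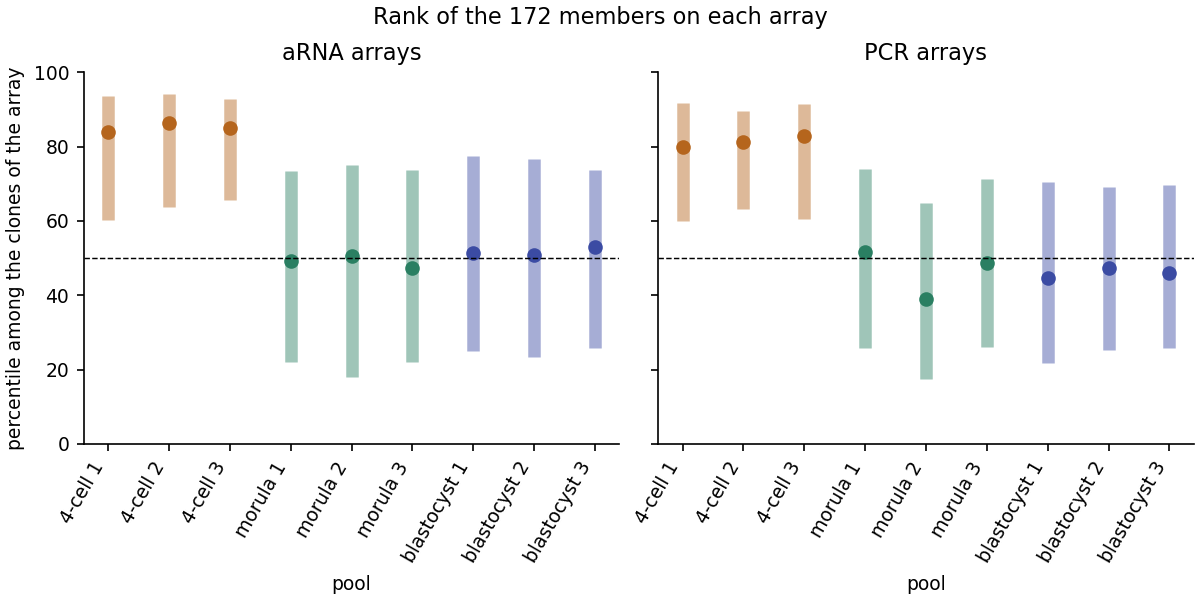
Percentile of the 172 clones among all 2052 clones of each array, by pool, for aRNA arrays (left) and PCR arrays (right). Points are medians over the 172 clones and bars run from the 25th to the 75th percentile of them. Medians on 4-cell arrays lie between 80.0 and 86.4, and those of morulae and blastocysts between 39.0 and 52.9, around the dashed line at 50.

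The word "lost" would overstate the fall for many of these clones. The raw intensity of the 172 clones did not drop from 4-cell to morula arrays: the median over clones of their geometric mean was 115 on 4-cell arrays, 134 on morula arrays and 95.9 on blastocyst arrays. Over all clones the same medians were 53.9, 133 and 98.9. The 172 clones thus stood above the other clones in 4-cell embryos and level with them afterwards, and their fall is relative to the rest of the array. Median raw clone intensity ran from 28 to 386 between arrays. Raw values of different stages therefore do not show whether the amount of RNA changed. A set of spots with the prefix XWAB, whose role the labels and headers leave unstated, served to set a level of dim signal. The 95th percentile of these spots was exceeded by 10.2% to 25.5% of all clones on single arrays. Most clones of every array thus lay under this level, and signal under it is called dim here. Above it on all 6 arrays of a stage were 23 of the 172 clones at the 4-cell stage, 9 at the morula and 7 at the blastocyst stage. These shares of 13.4%, 5.23% and 4.07% stood beside 4.53%, 8.38% and 8.48% of all clones. The share thus went down after the 4-cell stage in the 172 clones and up over all clones. Above it on no array of a stage were 52 clones at the 4-cell, 116 at the morula and 139 at the blastocyst stage. In percent these were 30.2%, 67.4% and 80.8%, beside 73.2%, 64.9% and 76.6% of all clones, so at both later stages the share lay near that of the whole array. Only 4 clones (lcao0043e06, lcao0045f05, lcao0048d05 and lcap0011a10, listed because they are so few) were above it on all 6 arrays of 4-cell embryos and on no morula array. They were 2.33% of the 172 clones, beside 0.195% of all clones, a gap that the choice favours. A further 5 clones (lcao0025g09, lcao0027f09, lcao0041b05, lcao0049d10 and lcap0019a08) were above it on all 18 arrays. Their share of 2.91% was near the 2.19% of all clones.

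This level decides how large a fold can be stated. For 29 clones at least 2 of the 6 arrays were above the XWAB level in both 4-cell embryos and morulae. The fold between the stages was then taken from normalized values, described below. Other arrays of a stage could still lie under the level, and their values were used as they were. The fold ran from 1.07 to 9.51 with a median of 2.38. For 57 clones the morula signal was above the level on at most 1 array, so only a lower bound can be given, setting the lowest intensity above the level in place of the morula signal. That bound exceeded 1 for 50 clones and reached 2-fold for 16 of them. The remaining 86 clones were above the level on at most 1 array of each stage. They differ in rank within the dim range of the array and get no fold.

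Normalized log2 intensities, made comparable between arrays by quantile normalization, gave the difference on a second scale, also for the clones without a measurable fold, where it is a difference in position within the dim range. The median level of the 172 clones was 8.14 at the 4-cell, 6.92 at the morula and 6.88 at the blastocyst stage. The difference between 4-cell embryos and morulae had a median of 1.14 over the 172 clones, against 0.05 over all clones. As fitted, bounds not applied, it exceeded 1 in 107 clones, 2 in 12 and 3 in 3. Between morula and blastocyst the same clones moved by -1.07 to 0.73 on this scale; the limit of 0.6 applies to the score, which is another scale. The spread among the 3 pools of a stage had a median SD of 0.44 at the 4-cell, 0.22 at the morula and 0.19 at the blastocyst stage. Over all clones these medians were 0.31, 0.23 and 0.18, so the gap to all clones was in the 4-cell pools. The choice favours such a gap, since a high 4-cell mean also admits clones with 1 high 4-cell pool.

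**Figure D2:**
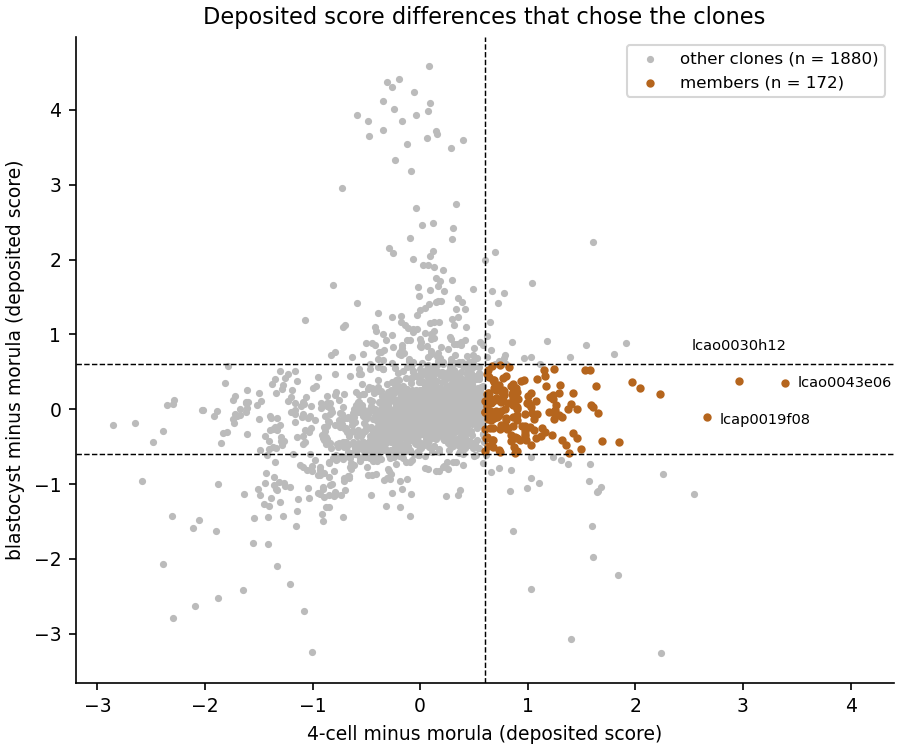
Deposited score of 4-cell embryos minus morulae (horizontal axis) against blastocysts minus morulae (vertical axis), in score units, for all 2052 clones. Dashed lines mark the limits of 0.6 that chose the 172 clones in orange, whose score fall runs from 0.601 to 3.39 and which crowd along the vertical limit, with a median of 0.861.

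Most of the 172 clones lay close to the limit that chose them, as the plot of score differences shows. The nearest inside were lcao0030a12 with a score fall of 0.601, lcao0025g09 with 0.602 and lcap0003f02 with 0.605. The nearest outside were lcap0009c11 with 0.598, lcao0041e06 with 0.596 and lcao0029g05 with 0.596. No gap in the score fall separated the clones on either side of the limit. At the limits on the blastocyst, lcao0042d12 and lcao0047c06 were the last inside on the upper side, with scores 0.596 and 0.578 above the morula. On the lower side lcap0017e06 and lcao0025c08 were the last, at -0.591 and -0.583. Just past them came lcao0041b06 at 0.605 and lcao0019e08 at 0.606 above, and lcao0029a09 at -0.608 and lcao0026h05 at -0.639 below. Clones such as lcap0017e06, whose normalized level went from 8.69 in 4-cell embryos to 6.89 in morulae and 6.18 in blastocysts, lay at this edge. It was above the XWAB level on no array of either later stage, so those later levels have no reliable order.

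The clone with the largest score fall, 3.39, was lcao0043e06. Its normalized log2 level was 11.40, 11.28 and 11.41 in the 3 pools of 4-cell embryos, 7.28, 6.81 and 7.33 in those of morulae, and 7.40, 7.50 and 7.84 in those of blastocysts. The 4-cell pools were all high and close together, and the groups were more than 3 log2 units apart. Its raw intensity ran from 320 to 2405 on the arrays of 4-cell embryos and from 45 to 387 on those of morulae, although the typical clone was brighter on morula arrays. The 4-cell level exceeded the morula level by 4.22 ± 0.21 (SE, log2). The clone was above the XWAB level on none of the 6 morula arrays. On the normalized scale the fold is therefore given as at least 9.43, and as at least 8.55 against blastocysts.

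The second, lcao0030h12, had a score fall of 2.97. Its level in the 3 pools was 11.71, 10.67 and 10.31 in 4-cell embryos, 7.45, 7.66 and 6.89 in morulae and 7.66, 7.67 and 8.08 in blastocysts. All 4-cell pools lay above all others, with a wider spread (SD 0.73) than in lcao0043e06 (SD 0.07). The 4-cell signal was at least 6.14-fold that of morulae.

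The next, lcap0019f08, had a score fall of 2.67 and the brightest 4-cell level of the 172 clones. Its pools stood at 12.58, 12.20 and 11.13 in 4-cell embryos, 8.74, 8.83 and 8.60 in morulae and 8.85, 8.83 and 8.50 in blastocysts. It fell the furthest among clones that remained measurable: it was above the XWAB level on 5 of 6 arrays in morulae and in blastocysts, and the fold from 4-cell to morula was 9.51. It was still at the 87.9th percentile of the clones in morulae.

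A further 3 clones had smaller falls. The pools of lcao0021h07 stood at 10.87, 11.18 and 11.05 in 4-cell embryos, 8.02, 7.96 and 8.23 in morulae and 8.56, 8.48 and 8.19 in blastocysts. Its 4-cell level was 7.78-fold the morula level, although only 2 of the 6 morula arrays were above the XWAB level. With lower values raised to the lowest clone value over that level, its morula mean was 8.40, so the fold would be smaller. The pools of lcao0042d04 stood at 10.09, 10.31 and 9.77, then 7.32, 7.30 and 7.39, then 7.76, 7.85 and 7.44, and the fold was at least 3.78. Those of lcao0045d09 stood at 9.68, 10.21 and 8.74, then 6.97, 6.89 and 7.00, then 7.59, 7.60 and 6.98, and the fold was at least 2.68. In all 6 of these clones the lowest 4-cell pool lay above the highest morula and blastocyst pool. All 6 remained among the chosen clones when any 1 pool was left out, as did 82 of the 172 in total. Picking the largest falls favours both, so they are given as a description. In 5 of the 6 clones, lcap0019f08 being the exception with equal means, the blastocyst mean was slightly above the morula mean. No rise is read from this. In lcao0043e06, lcao0045d09 and lcao0042d04 at most 1 array of each later stage was above the XWAB level. In lcao0030h12 it was 1 morula and 2 blastocyst arrays. The later levels of these clones have no reliable order.

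**Figure D3:**
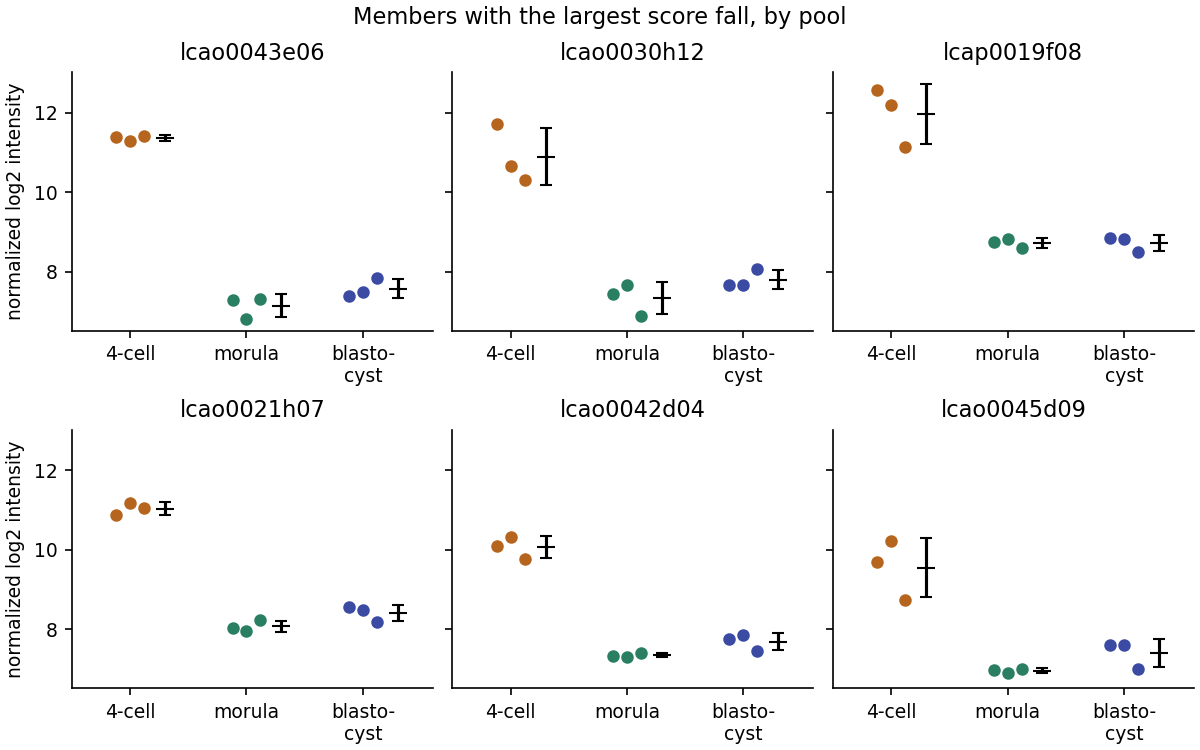
Normalized log2 intensity of the 6 clones with the largest score fall, by pool, for 4-cell embryos, morulae and blastocysts. Points are pools (mean of the aRNA and the PCR array), and bars give the mean and SD of the 3 pools of a stage. In each clone the 3 points of 4-cell embryos lie above those of both later stages, and lcao0043e06 has the tightest 4-cell points (SD 0.07).

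Counted over the list, the 4-cell pools lay wholly above the morula pools in 146 of the 172 clones (84.9%), where this was so for 18.5% of all clones. Against blastocyst pools it was so in 139 clones, where 23.7% of all clones did the same. In limma's moderated test over the 9 pools, with Benjamini-Hochberg adjustment over all 2052 clones and a threshold of 0.05, 127 of the 172 (73.8%) were lower in morulae than in 4-cell embryos, beside 9.55% of all clones. From 4-cell embryos to blastocysts 121 (70.3%) were lower, beside 14.2% of all clones. Between morula and blastocyst 2 were lower and 1 higher, beside 8.04% of all clones in each direction. Since the clones were chosen on these differences, the counts describe them and nothing is read from them.

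The choice of scaling mattered for the size of the fall. With arrays only centred on their median instead of quantile normalized, the 4-cell arrays kept their own range of intensities, given above as 0.954 to 1.45 log2 units per score unit. The median difference of the 172 clones then was 0.80 in place of 1.14, with 169 of the 172 above 0 and 127 at 0.6 or more, and the adjusted test called 24 of them lower in morulae in place of 127. The median over all clones was 0.09 on that scale and 0.05 on the main one. The direction of the difference was thus kept by 169 clones, while its size depended on the scale. The folds and lower bounds given here were taken on the quantile normalized scale alone. They were not recomputed with median centring, and a bound need not hold on another scale.

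A fall in score was not always a fall in normalized intensity. The clone lcao0025g09, just inside the score limit, had pools at 11.76, 11.87 and 11.55 in 4-cell embryos, 11.78, 11.68 and 11.42 in morulae and 10.55, 10.72 and 10.39 in blastocysts. The 4-cell and morula pools overlapped, at a difference of 0.10 ± 0.19 (SE, log2), and with median centring it was -0.63. It was the second brightest of the 172 clones in 4-cell embryos and the brightest in morulae, at the 98.5th percentile. By normalized level it belonged with clones that drop after the morula. The clone lcao0048e11, next in brightness in 4-cell embryos, had pools at 11.57, 11.29 and 11.84, then 9.70, 10.27 and 9.43, then 9.71, 9.71 and 9.92. Its 4-cell level was 3.40-fold the morula level and did not overlap it, yet it remained at the 94.2th percentile in morulae and above the XWAB level on all 6 arrays there. At the other end of the list, lcao0047b01 and lcap0011g11 stood lowest in morulae, at the 4.93th and 6.95th percentiles, and were above the XWAB level on no array of any stage.

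The clones whose 4-cell pools were most alike were lcap0010g04, at 8.16, 8.22 and 8.17, and lcao0024a01, at 8.65, 8.77 and 8.74. Their morula pools did not overlap these, at 6.91 ± 0.05 (SD, n = 3) and 6.98 ± 0.09 (SD, n = 3), and were above the XWAB level on no array. The likeness is that of pool means, and the 2 amplifications differed. On 4-cell arrays lcap0010g04 stood at 7.49 to 8.02 on aRNA and 8.42 to 8.84 on PCR. Clone lcao0024a01 stood at 9.52 to 10.18 on aRNA and 7.37 to 7.95 on PCR. They were above the XWAB level on 2 and 3 of the 6 4-cell arrays. The clones whose 4-cell pools differed most were lcao0024c06, at 6.26, 6.01 and 9.86, and lcap0020g09, at 10.82, 6.80 and 6.35. In each of them 1 pool was high and the other 2 were within the range of the later stages. Their morula pools stood at 6.07, 6.41 and 6.04 for lcao0024c06 and at 6.68, 7.32 and 6.57 for lcap0020g09.

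These last clones owed their place to 1 array each. The raw intensity of lcap0020g09 was 6309 on the PCR array of 4-cell pool 1, the brightest clone spot there, and 33 to 143 on the other 5 arrays of 4-cell embryos. The 8 spots around it had 38 to 196 on that array, and 5 of them were brighter there than on any other 4-cell array. The raw intensity of lcao0024c06 was 7579 on the aRNA array of 4-cell pool 3, again the brightest clone spot, and 17 to 48 on the other 5 arrays of that stage. This spot lay within a bright group of spots. Of its 8 adjacent spots, 7 were brighter on that array than on any other 4-cell array, with a median of 920 against 34.5, where the median of all spots of the array was 49. The adjacent spots included the chosen clones lcao0023d12 (5417 there, a median of 32 on the other 4-cell arrays) and lcao0024d11 (2536 there, 34 elsewhere), as well as an XWAB spot (1518 there, 30 elsewhere). Without that array the score fall of lcao0024c06 was 0.06, that of lcao0024d11 0.10 and that of lcao0023d12 0.36, all under the limit of 0.6. Without the bright array of lcap0020g09 its difference was -0.14. What made these spots bright was not tested.

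More widely, 63 of the 172 clones had a score fall under 0.6 when a single 4-cell array was left out, and 6 had one under 0.3. Leaving out 1 pool at a time, 82 clones kept to the rule in all 9 cases. These had a median score fall of 1.02 and a median 4-cell level of 8.58, and 44 of them had a fall of at least 1. The other 90 clones had a median fall of 0.71 and a median level of 7.81, and 13 of them had a fall of at least 1. Without 1 or another 4-cell pool 70 clones left the list, without a morula pool 60 and without a blastocyst pool 17. Without morula pool 2 alone 37 clones left it, more than without any other single pool.

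The sample titles end in a short string after a slash, whose first digit is called the array code here. The labels do not state what that digit means. It gave a division of the pools in which each code holds 1 pool of every stage. Choosing clones by the same rule on the pools of 2 codes and describing them in the 3 pools of the remaining code gave values that the choice had not used. Chosen without code 4, 190 clones had a median score fall of 0.82 in the pools that chose them and 0.65 in the pools left out. There, 52.1% had a fall of at least 0.6, where 17.3% of all clones did, and 81.1% had a difference above 0. Chosen without code 5, 208 clones had medians of 0.83 and 0.60, and 49.5% reached 0.6 in the pools left out, where 14.4% of all clones did. Chosen without code 6, 203 clones had medians of 0.82 and 0.56, and 47.8% reached 0.6, where 14.8% of all clones did. These lists were not the 172 clones themselves: 134 of the 190, 138 of the 208 and 143 of the 203 were among the 172. The direction was kept in 81.1% to 87.2% of the clones so chosen, in pools that had not chosen them, against 51.1% to 55.7% of all clones above 0. The whole rule, including the blastocyst limit, was met again by 79 (41.6%), 89 (42.8%) and 83 (40.9%) of them, beside 12.3%, 11.4% and 11.3% of all clones. The pools chosen on gave larger falls than the pools left out in all 3 cases.

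The 2 amplifications were separate measurements of the same RNA. The rule averaged them, so a positive difference on both largely follows from the choice and is given as a description. The normalized 4-cell minus morula difference had the same sign on aRNA and PCR arrays in 168 of the 172 clones (97.7%), beside 71.7% of all clones. Applied to the aRNA arrays alone and to the PCR arrays alone, the rule found 80 of the 172 clones both times. The median difference was 1.22 on aRNA arrays and 1.02 on PCR arrays, and it was larger on aRNA arrays in 115 clones (66.9%), beside 50.8% of all clones. The clones furthest from the diagonal in the plot of both amplifications include those carried by 1 array: lcao0024c06 fell by 2.35 on aRNA arrays and differed by 0.05 on PCR arrays, and lcap0020g09 differed by -0.09 on aRNA arrays and 2.37 on PCR arrays.

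**Figure D4:**
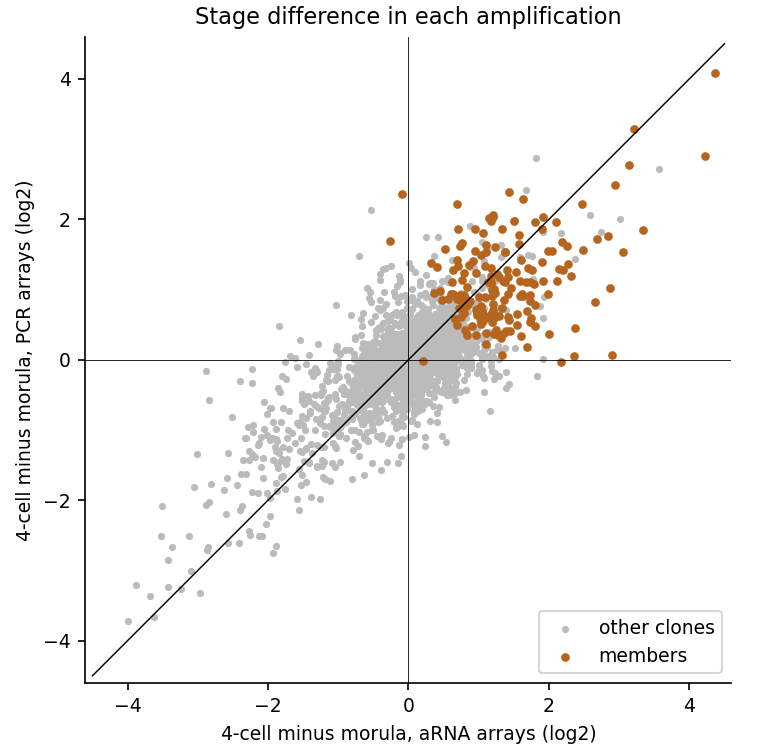
Normalized 4-cell minus morula difference (log2) on aRNA arrays (horizontal axis) and on PCR arrays (vertical axis), 1 point per clone, with the line of equality. The rule averaged both axes, so the 172 clones in orange lie to the upper right by choice. All but 4 are above 0 on both axes, and 115 of them lie below the line of equality.

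Whether the stage difference depended on the amplification was tested with limma as an F test on the PCR minus aRNA differences of the 9 pools, adjusted over all clones. No clone was called, so 0 of 172 beside 0% of all clones. At an unadjusted p under 0.05 it named 22 of the 172 (12.8%), beside 7.21% of all clones. The largest F values of the list belonged to lcao0047d03 and lcao0024a01. The difference of lcao0047d03 was 2.87 on aRNA and 1.02 on PCR arrays (F 16.8, limma adjusted p = 0.177). That of lcao0024a01 was 2.66 on aRNA and 0.83 on PCR arrays (F 14.2, limma adjusted p = 0.215). Both were above the XWAB level on 3 of the 6 4-cell arrays and on no morula array, and for neither did the differences depend on the amplification past the threshold.

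The rule did not compare PCR with aRNA, but it averaged these same arrays. A clone lifted by a bright 4-cell array of either amplification could enter the list and bring its PCR minus aRNA gap with it. The gap between the 172 clones and all clones is therefore not independent of the choice, and is given as a description. The PCR minus aRNA difference was taken within each pool after all 18 arrays had been quantile normalized together. It was tested with limma as the mean over the 9 pools. Of the 172 clones, 44 (25.6%) differed at an adjusted p under 0.05, beside 19.2% of all clones. Lower on PCR arrays were 32 clones (18.6%), beside 9.94% of all clones. Higher on PCR arrays were 12 clones (6.98%), beside 9.26% of all clones. The median difference was -0.19 over the 172 clones and -0.01 over all clones. It was most negative in the pools of 4-cell embryos, with medians of -0.40, -0.43 and -0.30, against 0.03, -0.17 and -0.09 in morulae and -0.08, -0.06 and -0.13 in blastocysts. Brighter clones were more often called: the median 4-cell level was 9.27 among those lower on PCR arrays, 8.51 among those higher and 7.77 among the rest.

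**Figure D5:**
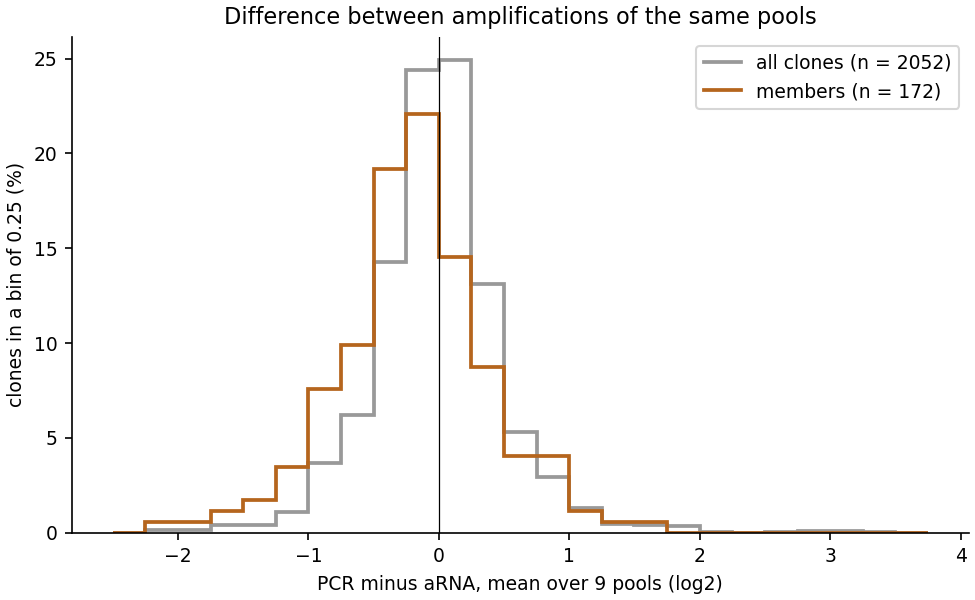
Mean PCR minus aRNA difference over the 9 pools (log2) for the 172 clones (orange) and all 2052 clones (grey), as the percentage of each set in bins of 0.25. The orange outline is shifted to the left, with a median of -0.19 against -0.01.

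Among the clones lower on PCR arrays, the differences ran from -2.06 to -0.48. The lowest was lcao0047h04, whose pool differences were -2.69, -2.81 and -2.55 in 4-cell embryos, -1.29, -2.20 and -1.89 in morulae and -2.16, -2.20 and -0.79 in blastocysts. It was lower on the PCR array in 9 of 9 pools, by 2.06 ± 0.17 (SE) on average (limma adjusted p = 1.63e-05). Clone lcao0048e11 was lower in 9 of 9 pools, with a mean of -1.86 ± 0.17 (limma adjusted p = 2.76e-05), and most so in blastocysts, at -2.81, -2.76 and -3.73. Clone lcao0041b05 had a mean of -1.57 ± 0.22 (limma adjusted p = 0.000467). Clone lcao0030h12, second by score fall, had a mean of -1.53 ± 0.18 (limma adjusted p = 0.000167), with -2.53, -2.16 and -2.11 in 4-cell embryos and -0.30, -2.03 and -0.44 in morulae. Of the 6 clones with the largest score fall, 4 were called lower on PCR arrays, while lcao0043e06 (0.14 ± 0.21, limma adjusted p = 0.70) and lcap0019f08 (-0.27 ± 0.22, limma adjusted p = 0.43) were not.

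Among the clones higher on PCR arrays, the largest difference was that of lcao0025g09, the clone without a fall in normalized intensity. Its pool differences ran from 1.08 to 2.03, positive in 9 of 9 pools, with a mean of 1.69 ± 0.14 (limma adjusted p = 1.63e-05). Clones lcao0042f07, at 1.26 ± 0.22 (limma adjusted p = 0.00192), lcap0019d02, at 1.23 ± 0.22 (limma adjusted p = 0.00237), and lcap0010g09, at 1.07 ± 0.15 (limma adjusted p = 0.000467), followed, each higher in 9 of 9 pools. Of these 3, lcap0019d02 alone was above the XWAB level on more than 1 morula array (4 of 6), and its 4-cell minus morula difference was 2.04 on PCR and 1.20 on aRNA arrays. Normalizing each amplification on its own kept the overall difference in level between them, and 112 of the 172 clones were then called lower and 4 higher on PCR arrays, beside 1194 and 54 of all clones. The split between lower and higher thus depended on that choice.

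The rule did not use the clone names, and no test was run on their shares. Of the 1017 clones with the prefix lcao, 114 (11.2%) were among them. Of the 1017 with the prefix lcap it was 56 (5.51%), and of the 15 with the prefix lcal it was 2. The meaning of the prefixes is not stated. Within the list, the blastocyst score was below the morula score in 41 of 56 lcap clones (73.2%) and in 47 of 114 lcao clones (41.2%), near the 68.6% and 42.0% of all clones with these prefixes. The median normalized fall was close in both, 1.11 for lcao and 1.15 for lcap. The plates read from the clone names that held the most were lcao plates 43 and 48, with 8 clones each. These were 18.2% of 44 and 17.4% of 46 clones, beside 8.38% of all clones. Smaller counts gave similar shares on other plates, such as 4 clones (18.2%) on lcao plate 32 and 7 (17.9%) on lcao plate 45. At the low end, lcap plate 14 held 0 of 48.

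Nor did the rule use the position on the array. Block 15 of the 16 blocks held 24 of the 172 clones (18.6% of its clones) and block 16 held 18 (14.1%), while block 7 held 3 (2.33%) and block 1 held 4 (3.10%). Over the whole array the share was 8.38%. Adjacent to another of the 172 clones were 102 of them (59.3%), beside 41.3% of all clones. A neighbouring spot at least 4 times as bright lay beside 69 of the 172 (40.1%), beside 46.3% of all clones. That bright neighbour was itself higher on 4-cell than on morula arrays, relative to the median, in 34 of the 69 (49.3%), where this was so for 26.3% of such neighbours over all clones. The other 103 clones had no such neighbour. The part of neighbouring spots in the values of single clones was not tested.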

How the data were processed

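Per the labels' protocols, total RNA of 9 embryo pools was amplified by in vitro transcription or by PCR in 2 rounds and labelled with 33P. Per the file headers, the authors quantified spot intensity with AGScan at a constant spot diameter, without a background column. A deposited series table gives 1 score for each spot name, by a formula the labels leave unstated; per array it followed log2 raw intensity at r = 1.00 after rounding, and 0 of its columns belong to other samples. The 172 clones were found on this score, with spots of a name averaged. The clones, lists and tests were chosen with earlier results of these data known. Lists of maternal, mRNA decay, ribosomal and mitochondrial genes and markers of cumulus, sperm, oviduct, blood, trophoblast and inner cell mass were not run, and stages were not checked against markers, since no table used here links clones to genes.

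Intensities were corrected with normexp (limma 3.58.1 in R 4.3.3, offset 50), log2 transformed, quantile normalized over clone spots within each amplification, and averaged over the 2 arrays of a pool, the replicate. lmFit and eBayes were run on all 2052 clones with Benjamini-Hochberg adjustment. PCR minus aRNA was tested within pools after joint normalization. Folds are bounds for a stage with at most 1 of 6 arrays over the XWAB level (percentile 95), taking on each array the higher of the clone's value and the lowest clone value over that level. Stages were not paired in the main test. Deviations of same-numbered pools correlated at -0.20 to 0.20, and those of pools with the same array code at -0.01 to 0.24. With the array code as a block, 149 of the 172 clones were called between 4-cell and morula, against 127. Whether pools of a code share a batch was not tested. Where litters are not stated to be separate, p-values measure only the spread between these pools. Scripts were tested on simulated data. Median raw clone intensity ran from 28 to 386 per array (29 to 122 at the 4-cell stage), and the number of arrays limits the precision.

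Named clones are those with the largest score fall, nearest the limits, with the largest amplification differences in each direction, the brightest, the most and least variable among 4-cell pools, the highest and lowest in morulae and with the largest interaction F. Those in counts of 5 or fewer or adjacent to lcao0024c06 were added after their values were seen. Alternatives were other limits, scalings and backgrounds, single amplifications, dropped dim clones, blocks and left-out pools. Plots were drawn with matplotlib 3.10.9.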

Additional observations from a re-analysis of the deposited data

Results flagged for a closer look

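In 4 of the 26 clones named by rule and tested, 1 of the 9 PCR minus aRNA pool differences stood further from the rest than Dixon's 95% critical value allows. Chance flags about 1 in 20 groups. Over the whole list 30 of 172 clones (17.4%) had such a pool, beside 353 of all 2052 clones (17.2%).

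All 4 lay in 4-cell pools. For lcao0024c06 the difference in pool 3 was -7.93, where the other 8 pools lay between -0.67 and 0.43. This is the clone in the bright group of spots on the aRNA array of that pool. For lcap0011g11, also in pool 3, it was -2.36, with the others between -0.92 and 0.32. For lcap0020g09 it was 7.07 in pool 1, with the others between -0.64 and 0.20. For lcap0019d02 it was 3.22 in pool 3, and there the other pools had the same sign, between 0.61 and 1.36.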

How the results depend on the processing

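The number of clones found by the rule ran from 141 to 226 over its alternatives, against 172, but fewer were shared with it: 111 on median-centred values, 118 on PCR and 128 on aRNA columns alone, and 158 on normalized values. The values below leave the direction of most results in place and change their counts. With median centring, 24 of the 172 clones were called between 4-cell and morula (127 in the main setting), 0 between morula and blastocyst (3), 39 between 4-cell and blastocyst (121) and 1 for the interaction (0). On PCR arrays alone 72 were called between 4-cell and morula and 1 between morula and blastocyst. Leaving out pools, singly or by array code, gave 66 to 126 between 4-cell and morula, 1 to 10 between morula and blastocyst, 77 to 126 between 4-cell and blastocyst, 22 to 57 for PCR against aRNA (44) and 0 to 1 for the interaction. The 66, 77 and 22 came without the pools of array code 5, and 81 were called between 4-cell and morula without those of code 6. The 10 came without the pools of code 4, and the 1 interaction call without 4-cell pool 2. Normalizing each amplification on its own raised the PCR against aRNA count to 116. The share of chosen clones that reached 0.6 in pools left out was 47.8% to 52.1%, and 49.8% over the 3 codes. With the replicate number as a block the counts were 128, 2, 119, 45 and 0, in the order above, which changed none by over 1.5 times. The labels do not tie the numbers to a shared batch. With the array code as a block they were 149, 4, 126, 43 and 0. Without pairing the arrays by pool, PCR against aRNA gave 39 and the interaction 0. Leaving out an array code was chosen after seeing the data.

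Among the named clones, 4 changed direction between 4-cell and morula under an alternative. The difference of lcao0025g09 became -0.63 with median centring, -0.013 on PCR arrays alone, and ran from -0.0045 (without morula pool 3) to 0.19 with 1 pool left out. That of lcao0041b05 became -0.12 with median centring. That of lcao0024c06 ran from -0.036 (without 4-cell pool 3) to 1.89. That of lcap0020g09 became -0.094 on aRNA arrays alone, and ran from -0.28 (without 4-cell pool 1) to 1.96. The cause was not tested, except that each of the last pair rests on 1 bright array. Dim signal limits what can be stated: 86 of the 172 clones were above the XWAB level on at most 1 array of 4-cell embryos and of morulae.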
